A study of Arabidopsis thaliana with 6 samples.

Results

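Ethylene treatment of dark-grown Arabidopsis seedlings was compared with air at the level of single ENAP1 binding regions. A peak of the air list and a peak of the ethylene list were taken as a pair when they overlapped by at least 1 bp and each was the other's longest overlap. The comparison held 6949 such pairs, from 9712 air and 8858 ethylene peaks, out of 37625 peaks in the 4 lists of the series. For each pair the pileup, which is the number of extended tags stacked at the summit, was ranked from 0 to 100 percent among the same pairs in each list, and the positions of both summits were compared.

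The series held 6 samples of whole Col-0 seedlings, with 1 library in air and 1 in ethylene for ENAP1 ChIP, for a second precipitation with an EIN2 antibody (reChIP), and for input. All seedlings were grown for 3 days in darkness at 24 °C and then spent 4 hours either in hydrocarbon-free air or in the same air carrying 10 ppm ethylene. Both ENAP1 ChIP libraries were made with an antibody against green fluorescent protein; the labels name no transgene, promoter or line, and no precipitation from seedlings without a tagged protein was used here. With 1 library per group there was no replicate error and no test. Intervals printed with a value are exact 95% intervals that cover counting error only, and a pair "ranked higher in ethylene" in these libraries alone.

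Ethylene is perceived by membrane receptors of the endoplasmic reticulum (ETR1, ERS1, ETR2, EIN4 and ERS2), which in air keep the kinase CTR1 active. CTR1 phosphorylates EIN2; with ethylene, the carboxyl-terminal end of EIN2 is released and reaches the nucleus, where transcription by EIN3 and EIL1 follows. ENAP1 is a nuclear protein with a DNA-binding domain of the trihelix type that associates with EIN2 and with histones, and in dark-grown seedlings the pathway is known for the short, thick hypocotyl and the tightened apical hook.

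The libraries were alike in depth, with 8400099 kept tags in air and 8811720 in ethylene, while the controls they were called against differed more, at 7160364 and 4809861 kept tags. Fragments were modelled at 160 bp in air and 152 bp in ethylene. Pileups ran from 20 to 315 tags in the air list and from 23 to 302 in the ethylene list, with medians of 55 and 62 tags. Because 1 tag was kept per position and strand, a pileup could not pass 320 tags in air or 304 in ethylene, and the highest peaks stood at 98.4% and 99.3% of that ceiling.

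Most of the air landscape of ENAP1 was found again in ethylene. The pairs made up 71.6% of the air list (70.6 to 72.4%) and 78.4% of the ethylene list (77.6 to 79.3%). High peaks were paired far more often than low ones: in the highest 25% of pileup 95.7% of air peaks and 97.6% of ethylene peaks had a partner, against 36.8% and 48.4% in the lowest 25%. The 2763 air peaks without a partner had a median of 34 tags, compared with 68 for paired peaks, and the 1909 ethylene peaks without a partner had a median of 37, compared with 73.

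The order of the regions by pileup was close in both treatments. Spearman's rho across the 6949 pairs, which share their library and depth and are given as a description, was 0.947, and a pair's rank differed by a median of 5.47 percentile points, with a 90th percentile of 15.5 points. The highest region in both lists lay in AT2G31590, with 315 tags in air and 302 in ethylene. The next in both lists, at 304 and 295 tags, had its summit at position 11416900 of chromosome 4 in air, over 1000 bp from any protein-coding gene. EIN2 itself ranked 6 in air and 5 in ethylene. Of the 10 highest regions in air, 7 were among the 10 highest in ethylene, and of the 100 highest, 78.

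**Figure D1:**
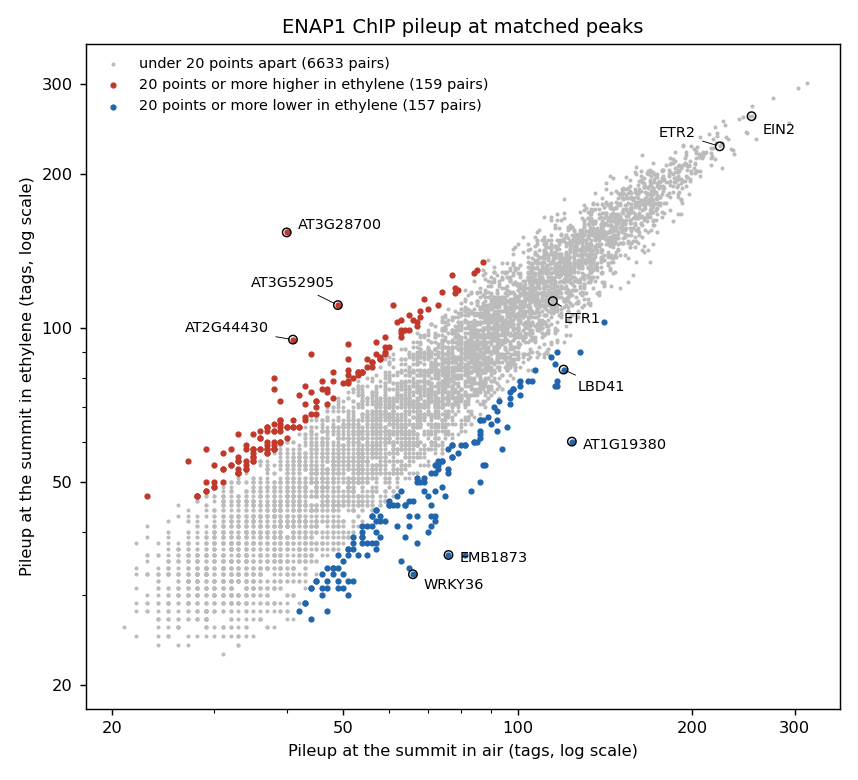
Pileup at the summit of each of the 6949 matched ENAP1 ChIP peaks in air (x axis) and in ethylene (y axis), in tags on log scales, 1 library each. Red points are the 159 pairs that ranked at least 20 percentile points higher in ethylene and blue points the 157 that ranked at least 20 points lower; ETR2, EIN2 and ETR1 lie in the main body of points, and AT3G28700 and AT1G19380 lie farthest from it.

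A difference of 20 percentile points was used to describe pairs that stood apart. It was reached by 159 pairs that ranked higher in ethylene, 2.29% of all pairs, and by 157 that ranked lower, 2.26%. The even balance depended on ranking among the pairs: with ranks among all peaks of each list, 100 pairs were at least 20 points higher and 259 lower. The pairs just inside and just outside that limit differed by 20.1 and 19.99 points on the higher side and by -20.01 and -19.95 points on the lower side. Few of them were among the strongest regions: only 3 lay in the highest 25% of mean rank, against 85, 155 and 73 in the lowest 25% and the next classes of that width. The mean rank and the difference come from the same ranks, and a pair near either end of the scale has little room to differ by 20 points. The low count at the top is therefore partly built in.

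Pooled over all pairs, the scatter between the libraries was about the size that counting alone gives. Tags were scaled to 1000000 kept tags, and the median ratio of ethylene to air was 1.03. The log2 ratio had an SD of 0.25 over all pairs, and counting error alone would give 0.26, or 0.23 when the ceiling on pileup is allowed for. The classes of mean rank differed. From the lowest to the highest class the SD was 0.29, 0.29, 0.23 and 0.15. Counting alone would give 0.34, 0.27, 0.22 and 0.18, or 0.32, 0.25, 0.19 and 0.13 with the ceiling. The SD was thus below counting in the lowest class and above the value with the ceiling in the others. The cause of this excess was not tested. The 95% interval of a pair's ratio lay above the median ratio for 111 pairs (1.60%) and below it for 132 (1.90%). Among the pairs past 20 points, it did so for 83 of the 159 that ranked higher and for 106 of the 157 that ranked lower. The rank difference and the ratio come from the same tags. These larger shares thus follow from how the pairs were chosen and are no separate evidence.

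The named pairs with the largest differences had the same nearest gene under both summits. They were picked for the size of their rank difference, and the ratio comes from the same tags. Ratio intervals that exclude 1 in these pairs thus follow from that choice and are no separate evidence. Of the 12 that ranked most points higher in ethylene, 9 joined peaks with exactly 1 partner. The first was AT2G44430, in the gene (air peak 2:18333507-18333669, TAIR10), with 41 tags in air and 95 in ethylene. That was 2.21 times the air pileup per 1000000 kept tags (1.52 to 3.27) and 46.1 points of rank. In this pair the ethylene summit also lay 233 bp from the air summit, so the tags were not counted over the same bases.

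AT3G52905 and AT4G13130 had summits close together in both lists, and their higher pileup in ethylene was at a fixed place. At AT3G52905 the summit was 67 bp outside the gene (3:19615665-19615954), with 49 tags in air and 111 in ethylene, a ratio of 2.16 (1.53 to 3.09). At AT4G13130 it was 730 bp outside (4:7646455-7646653), with 38 and 80 tags and a ratio of 2.01 (1.35 to 3.04). AT1G55960 followed with 44 and 89 tags and AT1G15385 with 38 and 76. The counting intervals of both ratios lay above 1, which follows from picking the largest rank differences.

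A gene of chromosome structure was also in this group. TTN7, which encodes the SMC3 subunit of cohesin, the ring that holds sister chromatids together, had 27 tags in air and 55 in ethylene, a ratio of 1.94 (1.20 to 3.20). Its air peak was among the lowest 1.98% of pairs. AT5G50230 had 43 and 77 tags, and AT3G15430 had 61 and 111. For AT3G15430 alone among the 12 the fold enrichment over the control ranked lower in ethylene, by 3.64 points. At AUG2, also among the 12, the fold rank was only 0.91 points higher, beside 32.5 points by pileup.

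A small peak beside the receptor gene ETR2 belonged to the pairs that ranked much higher. Its summits were nearest to AT3G23145, 661 bp outside that gene, and within 1000 bp of ETR2 (air peak 3:8253757-8253929, ethylene peak 3:8253736-8253942). It held 33 tags in air and 62 in ethylene, a ratio of 1.79 (1.16 to 2.82), and its fold enrichment was 2.57 in air and 4.84 in ethylene. The main ETR2 peak next to it did not share this difference.

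Among regions in the highest 25% of pileup in at least 1 list, CBF4, a DREB-type factor of the drought response, had 74 tags in air and 118 in ethylene. The ratio was 1.52 (1.13 to 2.06), and its fold enrichment was 2.14 in air and 4.91 in ethylene. COX15, which encodes an assembly factor of cytochrome c oxidase, had 79 and 119 tags, with fold enrichments of 2.36 and 5.50. The control level was also lower in ethylene at both genes, and the fold is a ratio to it. It was 2.07 times the list median in air and 1.33 times in ethylene at CBF4, and 2.00 and 1.18 times at COX15. The others were emb1974 with 73 and 111 tags, AT4G32030 with 69 and 114, and AT3G09735 with 78 and 120. All of these summits were inside the gene, and each pair of summits was at most 45 bp apart.

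**Figure D2:**
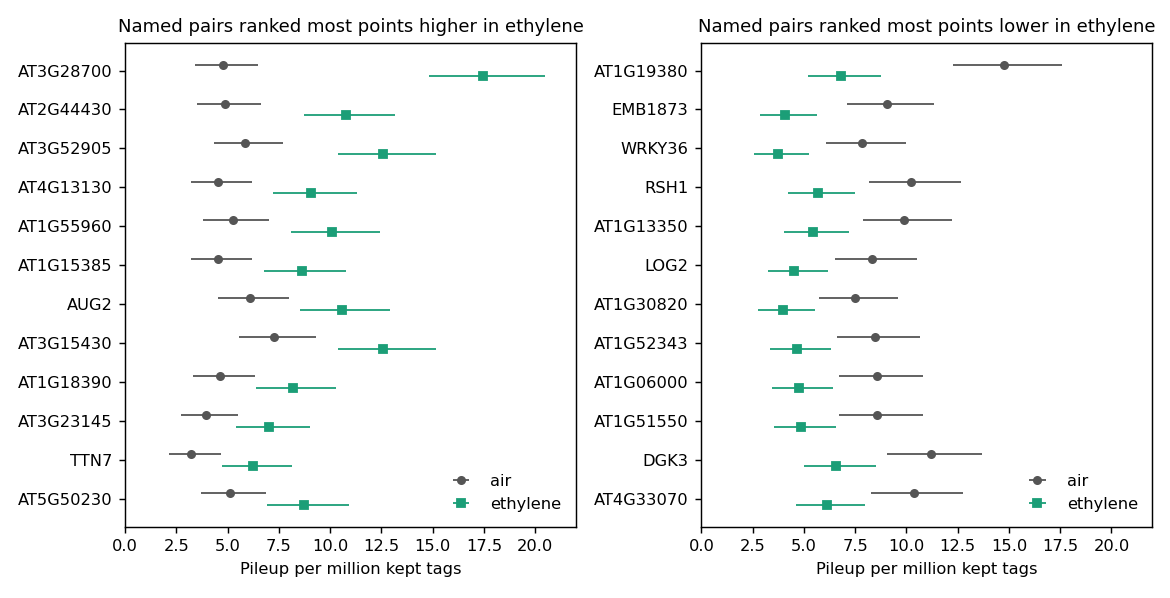
Pileup at the summit per 1000000 kept tags in air (grey circles) and ethylene (green squares) for the 12 named pairs that ranked most points higher (left) and the 12 that ranked most points lower (right) in ethylene, 1 library each; bars are exact 95% counting intervals. The 12 pairs on the left span ratios of 1.71 to 3.67 and those on the right 0.45 to 0.59; 3 pairs in each panel (AT3G28700, AUG2 and AT1G18390; AT1G19380, AT1G30820 and AT1G52343) join a peak that overlapped 2 peaks of the other list.

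Lower ranks in ethylene were found in genes of several kinds. EMB1873, the agmatine iminohydrolase of polyamine synthesis, had 76 tags in air and 36 in ethylene (air peak 5:2630883-2631353), a ratio of 0.45 (0.30 to 0.68). WRKY36, a factor of the WRKY family, had 66 and 33 tags at a summit 252 bp outside the gene (1:26279048-26279683), a ratio of 0.48 (0.30 to 0.73). Both had a lower fold enrichment in ethylene as well, 6.19 in air and 2.91 in ethylene at EMB1873, and 5.43 and 2.68 at WRKY36.

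RSH1, a chloroplast enzyme of the RelA/SpoT family that handles the signal nucleotide ppGpp, had 86 tags in air and 50 in ethylene. LOG2, an enzyme of cytokinin activation, had 70 and 40, and the diacylglycerol kinase gene DGK3 had 94 and 58. All 3 summits were inside the gene and at most 34 bp apart between the lists, with ratios of 0.55 (0.38 to 0.79), 0.54 (0.36 to 0.81) and 0.59 (0.42 to 0.82). AT1G51550 had 72 and 43 tags and AT4G33070 had 87 and 54. For AT1G13350, with 83 and 48 tags, and AT1G06000, with 72 and 42, the summits were 200 and 267 bp apart and the fold rank was higher in ethylene, by 4.91 and 5.73 points.

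At LBD41, a LOB-domain factor gene, separate peaks ranked lower together. The peak in the gene (3:537726-538118) had 120 tags in air and 83 in ethylene, a ratio of 0.66 (0.49 to 0.88), and its fold enrichment was 7.33 in air and 3.52 in ethylene. The peak 332 bp outside it (3:538321-538603) had 116 and 85 tags, a ratio of 0.70 (0.52 to 0.93), and fold enrichments of 7.17 and 4.87. Both were in the highest 25% of pileup in air and in neither list were their control levels high. STE1, a sterol desaturase of brassinosteroid and membrane sterol synthesis, had 106 and 79 tags, yet its fold rank was 25.5 points higher in ethylene. AT5G42110 had 104 and 79 tags, and AT4G16640 had 128 and 90 with summits 332 bp apart.

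For most of the remaining pairs with the largest differences, a peak of one list covered 2 of the other, and the value depended on which was the partner. The greatest difference of all, 72.9 points at AT3G28700, set an air peak of 40 tags (3:10758724-10759299) against a 995-bp ethylene peak of 154 tags (3:10758750-10759744). That ethylene peak also covered a second air peak (3:10759406-10759818) with 122 tags and a summit at 10759601, near the ethylene summit at 10759569. At AT1G19380 the order was turned round: an 829-bp air peak of 124 tags was paired with an ethylene peak of 60 tags, while a second ethylene peak with 127 tags had its summit at 6698575, near the air summit at 6698565. Set against the peak with the nearer summit, the tags were therefore 122 and 154 at AT3G28700 and 124 and 127 at AT1G19380.

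The same held at AUG2, a subunit of the microtubule-branching augmin complex, where the air list held peaks of 82 and 51 tags under an ethylene peak of 93 tags. At AT1G18390 the unpaired air peak, with 94 tags, stood higher than the ethylene peak that covered it, with 72. At SERAT2;1, a serine acetyltransferase of cysteine synthesis, an air peak of 117 tags covered ethylene peaks of 87 and 77 tags, and at AT3G22070 an air peak of 117 covered ethylene peaks of 113 and 79. At AT1G52343 an air peak of 71 tags covered ethylene peaks of 62 and 41, of which the lower was the partner. AT1G30820 differed from these: its air peak of 63 tags had the ethylene peak with the nearer summit, 35 tags at 12 bp, as its partner, and the other ethylene peak held 28. Such cases were rare in the whole set: 99 air peaks and 73 ethylene peaks overlapped 2 peaks of the other list.

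The strongest ENAP1 regions of the ethylene pathway had nearly the same rank in both lists. ETR2, a receptor with a strong ENAP1 peak, had 223 tags in air and 227 in ethylene, a ratio of 0.97 (0.80 to 1.17), with summits 2 bp apart; its fold enrichment was 13.6 in air and 17.4 in ethylene. EIN2 had 253 and 260 tags, a ratio of 0.98 (0.82 to 1.17), yet its fold enrichment was 9.03 in air and 5.50 in ethylene. The control level under the EIN2 peak was 1.64 times the median of its list in air and 2.69 times in ethylene, so the pileup and the fold give different accounts of the same region. These pileups stood near the ceiling set by keeping 1 tag per position, at 79.1% of it in air and 85.5% in ethylene for EIN2 and at 69.7% and 74.7% for ETR2. The ceiling draws such ratios toward 1, so a larger difference than the intervals show is possible, and equal levels are not shown.

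Among the other receptors, ETR1 had 115 tags in air and 113 in ethylene, a ratio of 0.94 (0.72 to 1.23), and a lower fold enrichment, 7.92 in air and 4.82 in ethylene. EIN4 had 58 and 71 tags. The ERS1 peaks, with 44 and 36 tags, overlapped but were nearest to different genes. At ERS2 the air peak of 37 tags (1:1154780-1154962) and the ethylene peak of 58 tags (1:1154992-1155255) did not touch and formed no pair. None of the receptors with a pair under both of their own summits reached 20 points in either direction.

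Downstream of the receptors, the kinase gene CTR1 had 61 tags in air and 64 in ethylene, a ratio of 1.00 (0.69 to 1.44). EIL1, which encodes an EIN3-like factor, had 43 and 49 tags with summits 233 bp apart. EBF1, an F-box protein that marks EIN3 for degradation, had separate peaks, with 51 and 49 tags at the higher and 34 and 36 at the lower. XRN4, the exoribonuclease also known as EIN5, had 79 and 91 tags, and AT3G11100 had 204 and 203. AT3G11100 is known as the locus of ENAP1, though the annotation used gives it no symbol; its control level was high, 6.14 times the list median in air and 5.38 in ethylene, and its fold enrichment only 2.01 and 2.19. Each ratio's interval held 1, and rank differences ran from -6.71 to 4.64 points.

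The response and synthesis genes showed the same closeness with a few wider gaps. Of 16 response factors, 11 had a pair, 2 ranked higher, 9 ranked lower and 0 reached 20 points. The median was -5.71 points, beside 0.02 over the 5914 genes with a pair, of which 2968 ranked higher and 2938 lower. ERF1, an activator of defence and ethylene responses, had 48 tags in air and 65 in ethylene, and RAV1 had 78 and 73. Of 14 synthesis genes, 6 had a pair, 2 ranked higher and 4 lower. ACS6, an enzyme that makes the ethylene precursor ACC, had its higher peak at 77 and 59 tags, 20.4 points lower, and another peak at 26 and 43 tags, 16.9 points higher; the counting intervals of both ratios held 1 (0.51 to 1.04 and 0.95 to 2.67).

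**Figure D3:**
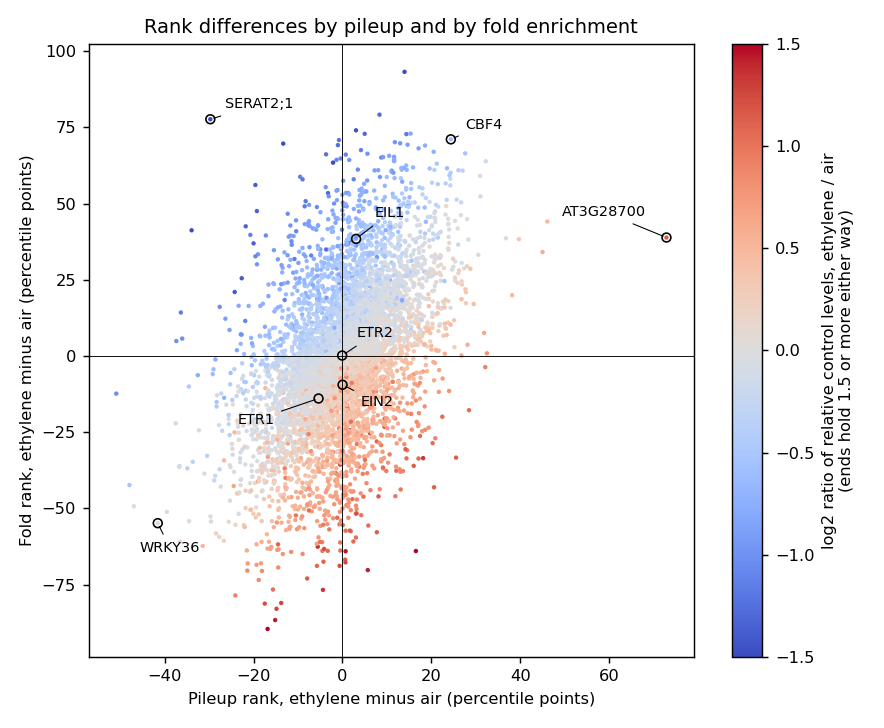
Difference in pileup rank (x axis) and in fold enrichment rank (y axis) between ethylene and air for the 6949 pairs, in percentile points, coloured by the log2 ratio of the control level relative to its list median. EIN2, ETR1 and ETR2 lie near 0 on the x axis, SERAT2;1 has opposite signs on the axes, and pairs with a higher relative control level in ethylene (red) lie lower on the y axis. The place of the red points is built in, because the fold is a ratio to the control.

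Fold enrichment ordered the regions less alike than pileup did. Its Spearman's rho between the lists was 0.713 as a description, the median rank difference was 12.2 points, and 1108 pairs (15.9%) ranked at least 20 points higher and 1095 (15.8%) at least 20 points lower in ethylene. Differences in fold rank went with the control: across pairs, rho was -0.704 with the log ratio of the relative control levels, and 0.109 for differences in pileup rank. The fold is a ratio to this control level, which was itself derived from pileup and fold. A negative rho for the fold is therefore built in. The fold rank of the 159 pairs that ranked higher by pileup was also higher in 145, and that of the 157 that ranked lower was also lower in 133. The fold uses the same tags as the pileup, so this is no separate evidence.

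Gene families and pathways were compared by 1 pair per gene, the one with the most tags. A pair was found for 5914 genes, 21.5% of all protein-coding genes. Of these, 2968 ranked higher and 2938 lower in ethylene, and these values are the background for the counts of each list. By at least 20 points, 140 (2.37%) ranked higher and 131 (2.22%) lower. Most lists held members in both directions and few past 20 points. Of 67 WRKY genes, 27 had a pair, 11 ranked higher and 16 lower, with a median of -0.99 points, and WRKY36 was the 1 past 20 points. Of 115 MYB genes, 10 had a pair, of which 1 ranked higher and 9 lower, with a median of -6.18 points; MYB70 differed most, with 49 tags in air and 37 in ethylene, and its interval (0.46 to 1.13) held 1.

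Histone acetylation is the process through which EIN2 and ENAP1 are known to act on chromatin. Of 18 genes of acetylation and deacetylation, 7 had a pair, 5 ranked higher and 2 lower, with a median of 0.47 points and none past 20. The deacetylase gene HDA15 differed most, with 84 tags in air and 109 in ethylene, a ratio of 1.24 (0.92 to 1.66). HDA9 had 49 and 48 tags, and the acetyltransferase gene HAC5 had 89 and 88. The light-signalling genes were as close: COP1, a ubiquitin ligase active in darkness, had 94 and 115 tags, PHYA, the far-red photoreceptor, had 58 and 57, and PIL6, a phytochrome-interacting factor, had 144 and 138.

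In the cytoskeleton list, 6 of 17 actin and tubulin genes had a pair, 3 higher and 3 lower. TUA3, an alpha-tubulin, had 38 tags in air and 58 in ethylene, and ACT8, a vegetative actin, had 121 and 97; both intervals of the ratio held 1. Of 46 genes matched by the symbols of auxin response genes, 14 had a pair, 7 higher and 7 lower, with ARF2, a repressor in auxin signalling, at 42 and 55 tags. The match took in ADP-ribosylation factor genes with the same symbols, of which AT1G23490, with 54 and 55 tags, is counted among the 7 lower. Of 31 expansin genes, which loosen cell walls, 4 had a pair, 3 higher and 1 lower, and EXPA9 had 49 and 66 tags. Of 81 NAC genes, 11 had a pair, 5 higher and 6 lower, and 0 reached 20 points by their highest peak. NAC083 had a pair with 60 and 45 tags, 21.8 points lower, whose interval (0.47 to 1.07) held 1.

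The cytochrome P450 and RAB lists held several members with wide rank differences, named because they were the largest of their lists. CYP707A1, an abscisic acid 8'-hydroxylase that inactivates the hormone, had its higher peak at 81 and 84 tags, 2.12 points lower, and another pair with 64 tags in air and 39 in ethylene, a ratio of 0.58 (0.38 to 0.88), with summits 230 bp apart. CYP71B34 had 76 and 53 tags, a ratio of 0.66 (0.46 to 0.96). Over the 229 genes matched by the symbol of cytochrome P450 genes, 28 had a pair, 11 higher and 17 lower, with 1 and 2 past 20 points. The match took in the cyclophilin gene CYP59, which is no cytochrome P450. It had 52 and 32 tags, 28.9 points lower, and is counted among those 2. Of 49 RAB GTPase genes of vesicle traffic, 20 had a pair, 8 higher and 12 lower; RAB6A had 73 and 55 tags and RABA6b had 62 and 47, both with intervals that held 1 and fold ranks in the opposite direction. Of 31 genes matched by the symbols bZIP and ZIP, 5 had a pair. Only 2 of them were bZIP factors, bZIP2 with 54 and 40 tags and bZIP19 with 96 and 85, both lower in rank; the others were the zinc transporter genes ZIP2 (higher), ZIP3 and ZIP5 (lower). Of 36 heat shock genes 9 had a pair, 4 higher and 5 lower, with HSFA3 at 47 and 67 tags.

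Where a region lay relative to its gene's edge, up to 800 bp inside, went with the direction of its rank difference. Distances were taken from the air summit to the nearest edge of the nearest protein-coding gene, either its start or its end, since strand was not used. Just outside genes, from 1 to 200 bp from the edge, 6.23% of 626 pairs ranked at least 20 points higher in ethylene (4.47 to 8.42%) and 1.60% at least 20 points lower (0.769 to 2.92%), against 2.29% and 2.26% of all pairs. Deeper in genes, over 200 and up to 800 bp inside the edge, 0.810% of 1851 pairs ranked higher (0.454 to 1.33%) and 3.67% lower (2.86 to 4.63%). Over 800 bp inside, 0.719% of 278 pairs ranked at least 20 points higher and 2.52% at least 20 points lower. Their median difference was -0.036 points and 49.3% ranked higher in ethylene, so lower ranks were not clear at that depth.

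The pattern was present at both levels of pileup and with either summit. In the upper 50% of mean pileup rank, 4.23% of 189 pairs just outside genes ranked at least 20 points higher and 0 lower, and 0.620% of 1130 pairs at 200 to 800 bp inside ranked higher and 2.21% lower. When the ethylene summit placed the pair, the shares were 6.05% higher and 1.97% lower just outside, and 0.913% and 3.19% at 200 to 800 bp inside. The median difference was small in both places, 2.04 and -1.21 points, and 60.4% of pairs just outside genes ranked higher in ethylene, compared with 41.5% at 200 to 800 bp inside. By fold enrichment the medians were 2.07 and -0.16 points, and the share at least 20 points higher was 19.3% just outside genes against 15.9% of all pairs, while the share at least 20 points lower was 16.7% at 200 to 800 bp inside against 15.8% of all pairs. The part of the pattern inside genes was thus close to the background by fold.

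**Figure D4:**
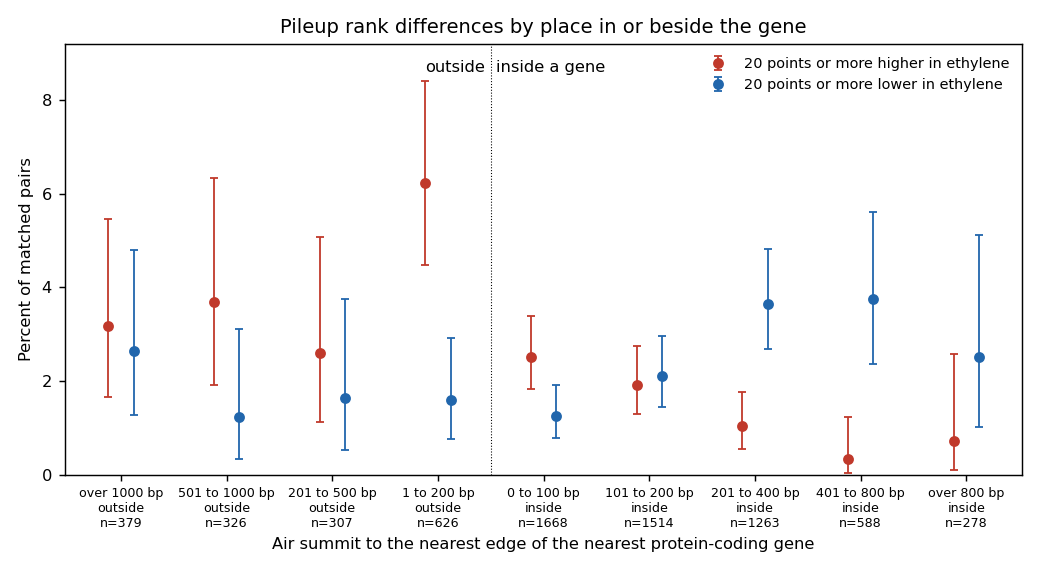
Percent of matched pairs that ranked at least 20 points higher (red) or lower (blue) by pileup in ethylene, by the distance of the air summit from the nearest gene edge; bars are exact binomial 95% intervals and n is the number of pairs. The red share is highest at 1 to 200 bp outside genes, 6.23%, and at 400 to 800 bp inside it is 0.340% against 3.74% for the blue share.

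Rank differences varied with mean rank. Their median size was 5.93, 7.74, 6.45 and 2.55 points from the lowest to the highest 25% of mean rank. The pairs past 20 points were therefore also set beside other pairs of a like mean rank. These others had mean ranks of 24.3 to 49.0 for the higher side and 24.9 to 49.0 for the lower side. All pairs past 20 points were kept, also those outside these ranges. Over 200 bp inside a gene lay 10.7% of those that ranked higher (6.35 to 16.6%) and 28.5% of the 1595 others of like rank. Of those that ranked lower, 47.8% lay there (39.7 to 55.9%), compared with 28.8% of 1566 others. Outside genes by 1 to 1000 bp lay 37.1% of the pairs that ranked higher and 319 of the 1595 others, and 12.1% of those that ranked lower and 19.3% of the others. The fragment length modelled for the libraries, 160 and 152 bp, and the depth of the controls also differ between the treatments, and their part in this pattern was not tested.

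Overlap with the deposited reChIP lists was only slightly uneven. An ethylene reChIP peak overlapped 17.6% of the pairs that ranked higher in ethylene (28 of 159) and 13.8% of others of like rank. The same was found at 15.3% of those that ranked lower (10.0 to 21.9%) and 13.9% of the others. An air reChIP peak overlapped 8.81% of the former (4.90 to 14.3%) and 15.3% of the latter (10.0 to 21.9%), beside 11.2% and 11.0% of others of like rank, and the intervals overlap. Only 1783 of the 9174 air reChIP peaks had a q of 0.05 or lower, and with these the shares were 1.89% and 4.46%. The reChIP libraries kept 644263 tags in air and 304818 in ethylene, with 84% and 83% duplicates. The ethylene reChIP was called against the air reChIP library, so its list shows a difference from air rather than occupancy. Whether EIN2 was present at a pair cannot be read from that list.

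Summits lay close together in both lists. The median distance between the summits of a pair was 21 bp, 81.4% of pairs were within 50 bp (80.5 to 82.3%), and 1.64% had summits at the same base. The shift had no side: 49.5% of ethylene summits lay at lower and 48.8% at higher coordinates. In 97.4% of pairs the ethylene summit was inside the air peak. The distance was shorter in higher regions, with a median of 37 bp in the lowest 25% of mean rank and 14 bp in the highest.

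**Figure D5:**
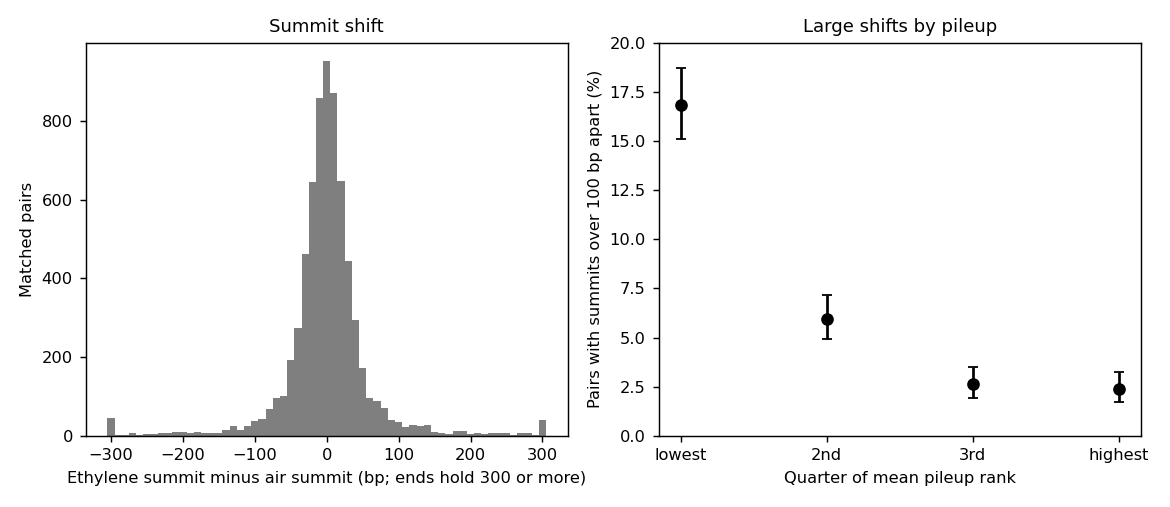
Left, number of matched pairs by ethylene summit minus air summit in bp, with the end bars holding 300 bp or more; right, percent of pairs with summits over 100 bp apart by mean pileup rank in classes of 25 percentile points, with exact binomial 95% intervals. The distribution is centred on 0, and the share of large shifts is 16.8% in the lowest 25% and 2.40% in the highest.

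Summits over 200 bp apart were found in 185 pairs, 2.66%, and over 500 bp in 9. These pairs had wide peaks, with medians of 465 bp in air and 369 bp in ethylene, compared with 296 and 279 bp for the others, and 33 of the 185 included a peak with 2 partners. AT1G31240 was the named gene with the largest shift among pairs with exactly 1 partner: its summits lay 708 bp apart in a peak of 163 tags in air and 160 in ethylene. At SCL8, a GRAS-family factor gene, the summits were 498 bp apart with 107 and 111 tags. At HK5, a histidine kinase gene, they were 516 bp apart with 75 and 64 tags. In these genes the counting interval of the ratio held 1 while the highest point lay at another place in a wide region.

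Where summits differed, the one in ethylene was more often the one nearer to or beyond the gene's edge. Of 1126 pairs with 1 gene and summits over 50 bp apart, 60.7% had the ethylene summit farther out (57.7 to 63.5%) and 39.3% deeper in. Over the 6471 pairs with 1 gene the median summit was 120 bp inside the edge in air and 111 bp in ethylene. Pairs past 20 points more often had summits over 100 bp apart, which 481 of all pairs had (6.92%): it was 10.1% of those that ranked higher and 18.5% of those that ranked lower, compared with 5.20% and 5.11% of others of like rank.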

How the data were processed

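The submitters' processing notes list BWA and the build TAIR10. Per the file headers, the authors ran MACS2 2.1.0.20150603 on each library with 1 control library, a p cutoff of 0.01 and 1 tag kept per position. Groups follow the titles, although 1 label of each ethylene sample reads air. The deposited lists hold summit pileup, a signal (coverage in tags) scaled to the control library, and fold enrichment, a ratio to the local control. The −log10 p-values and q-values are also deposited as MACS2 wrote them. The scaling was undone with the kept tags per the file headers; values came out whole within 0.02 tags for 100% of peaks. Each library had 1 sample and no replicate, and intervals cover counting error only.

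Pairs were mutual longest overlaps of at least 1 bp. Ratios are per 1000000 kept tags, with exact binomial 95% intervals. The control level, derived from deposited pileup and fold, was called high at 5 times its list median. Genes were the 27444 protein-coding genes on chromosomes 1 to 5 of a RefSeq table (TAIR10.1), used for names and distances without strand; a pair had 1 gene when both summits had the same nearest gene at most 1000 bp away. Coordinates are those of the deposited lists. No genome sequence was used here, so motifs and promoter sequences are not shown.

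Named pairs had q of 0.05 or lower in both lists and 1 gene: the 12 with the largest rank difference each way, the 8 each way among pairs in the highest 25% of pileup in a list without a high control level, the 8 largest summit shifts, up to 3 per list in 16 gene lists, and 9 genes of the pathway with their pairs whatever the q. Receptor peaks that formed no pair with 1 gene, the highest regions and the second partners were named after their values were seen. Of the lists, 7 were written out (98 genes) and 9 were matched by symbol. The members and lists were chosen with earlier results of these data known; the bins of distance from gene edges, the pairs of like mean rank and the hypoxia list were chosen after their values were seen. Scripts were tested on simulated data and used Python 3.11.15, numpy 2.4.6, pandas 2.3.3, scipy 1.17.1 and matplotlib 3.10.9. Alternatives were another overlap, stricter q limits, peaks with exactly 1 partner, fold in place of pileup, ranks among all peaks of a list, no regions of high control level and, chosen after seeing the data, the partner with the nearest summit.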

Additional observations from a re-analysis of the deposited data

How the results depend on the processing

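Fold enrichment in place of pileup changed the results most. It gave a median rank difference of 12.2 points, 1108 pairs at least 20 points higher and 1095 lower, 31.7% of pairs apart by 20 points, and, at the edges of genes, 19.3% higher at 1 to 200 bp outside and 16.7% lower at 200 to 800 bp inside, against 15.9% and 15.8% of all pairs. The direction by fold was opposite for 25 of 95 named pairs, of which 15 were under 20 points apart by pileup (COP1, ARGOS, PIL6, ZIP3 and EBF1 among them). The 10 past 20 points were AT3G15430 (-3.64 points), AT1G13350 (4.91), AT1G52343 (14.3), AT1G06000 (5.73), SERAT2;1 (77.7), STE1 (25.5), AT5G21940 (37.0, from -20.01), AT1G10410 (-17.8), RAB6A (16.4) and RABA6b (39.7); the fold contains the control, and the cause beyond that was not tested. Ranks among all peaks of each list gave a median of 5.18 points, 100 pairs higher and 259 lower, 5.17% apart and 4.31% higher just outside genes; the unpaired peaks that enter there are unequal in number.

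With −log10 q of at least 5 there were 4014 pairs, 87.8% of the ethylene and 69.5% of the air list, with a median of 5.69 points, 101 pairs higher and 98 lower, 4.02% apart, a median shift of 16 bp, 92.0% of summits within 50 bp, 41 pairs over 200 bp and 63.6% of shifts outward. An overlap of 50% of both peaks gave 71.6% of the ethylene and 65.3% of the air list, 3.88% apart, 84.1% within 50 bp, 85 pairs over 200 bp and 2.70% lower at 200 to 800 bp inside. A q of 0.05 or lower gave 79.9% and 70.2% of the lists. Peaks with exactly 1 partner gave 76.5% and 69.8%, and 83.4% within 50 bp. The partner with the nearest summit, chosen after seeing the data, gave 157 pairs higher, 152 lower and 155 over 200 bp, and AT3G28700 and AT1G19380 then had other partners.

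No paired analysis was possible because each group had 1 library and no result came from a test; for the same reason leaving out a replicate was not run. Depth limits the lowest 25% of pairs most, where 35 and 38 tags at the median gave a counting SD of 0.34 on the log2 scale.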

Other observations

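Genes that respond to low oxygen were common among the ENAP1 regions found in both treatments. The 40 genes were listed after the values of LBD41 and ETR2 had been seen, so the counts are a description with no test. Both LBD41 and ETR2 remain among the 40 and their pairs are counted. Of the 40, 22 had a matched pair (55.0%), compared with 21.5% of all protein-coding genes. The 27 pairs of these genes included 3 in the highest 1% of air pileup: AT3G10040 with 293 tags in air and 252 in ethylene, ETR2 with 223 and 227, and PFK6, a phosphofructokinase gene of glycolysis, with 215 and 215. AT3G27220 had a further high peak, with 179 and 188 tags.

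The direction of their rank differences was mixed. Of the 27 pairs, 10 ranked higher and 17 lower in ethylene, with a median of -0.65 points. AT1G19530 ranked 24.0 points higher, with 32 and 54 tags, and both LBD41 peaks and AT4G33070 ranked at least 20 points lower. These were the only pairs of the 27 past 20 points, 1 higher and 3 lower, beside 2.29% and 2.26% of all pairs. ADH1, the alcohol dehydrogenase of fermentation, had 45 tags in air and 38 in ethylene, 13.3 points lower, and CML38, a calmodulin-like protein gene, had 37 and 51, 13.9 points higher.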
